A study of Mus musculus with 4 samples.

Results

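The 9 genes described here are markers of astrocytes, the star-shaped support cells of the brain, and of radial glia, the dividing progenitors that line the developing neural tube. They are Gfap, Hepacam, Cryab, Fabp7, Ptprz1, S100b, Aqp4, Aldh1l1 and Aldoc, 9 of the 49997 gene symbols counted in each library. They were chosen by name from known glial markers with the counts of these same libraries in view, so the differences between groups given for them describe the members and carry no test. Of the 9 members, 7 passed the filter on low counts in the comparison of all genes, and S100b and Aldh1l1 did not.

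The libraries come from iMOP cells, an immortalized mouse line of progenitors from the inner ear, labelled wild-type in both groups. The 2 proliferating cultures were kept in DMEM/F12 with B27, carbenicillin at 25 µg/ml and bFGF, a growth factor that keeps progenitors dividing, at 20 ng/ml. The 2 cultures labelled iMOP-derived neurons were kept in Neurobasal medium with N21, L-glutamine at 2 mM and K03861 at 1 µM. K03861 blocks CDK2, a kinase of the cell cycle. Both groups are of 1 line, and whether the replicates of a group were separate differentiations is not given in the sources used here.

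Glia and neurons arise from shared progenitors, and radial glia carry proteins such as Fabp7 and Ptprz1 before astrocyte proteins such as Gfap and Aqp4 appear. Gfap is switched on by JAK-STAT signalling together with NFI and SOX9 factors. In the inner ear, glial cells of the spiral ganglion and the supporting cells of the sensory epithelium share part of this gene set.

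The total count was 7446361 to 14484011 per library, and 2595578 to 3850766 without the row for 18S ribosomal RNA. That row held 53.3% and 59.4% of the counts in the replicate 1 libraries of proliferating cells and neurons, and 75.0% and 76.1% in those of replicate 2. Proliferating replicate 2 stood apart with 17762 genes detected, against 20012 to 21637 in the other libraries. Levels are in CPM, counts brought to a common library size by TMM scaling, a correction for libraries dominated by a few abundant RNAs. By this scale 1 count was worth 0.0822 to 0.135 CPM, and a count of 0 allowed a level of up to 3 counts, or 0.246 to 0.406 CPM. The 9 members held 1824 and 1389 counts in the 2 proliferating libraries, replicates 1 and 2 in that order, and 600 and 132 in the 2 neuron libraries. The labels of the neuron group were checked on 12 neuron markers, of which 11 were tested and 0 were called by edgeR (1 had an unadjusted p-value under 0.05). The summed level of these markers was 164.7 and 349.1 CPM in the 2 proliferating libraries. It was 202.8 and 368.7 CPM in the 2 neuron libraries, so the groups overlapped. Single markers differed both ways. In the replicate 1 pair 7 of the 11 were lower in neurons, 3 of them (Snap25, Syt1 and Nefh) at least 2-fold. In the replicate 2 pair 3 were lower, 1 of them at least 2-fold. Elavl4 alone was at least 2-fold higher in neurons in both pairs.

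Promoter sequences of 4 members are shown because these genes behaved in 2 ways. Gfap and Hepacam were low in both neuron libraries. Fabp7 and Aldoc were within 2-fold in the replicate 1 pair and at least 2-fold lower in neurons in the replicate 2 pair. Aldoc was highest in proliferating replicate 2, at 79.2 CPM against 16.5 in proliferating replicate 1 and 18.3 and 7.75 in the neuron libraries. Each sequence runs from 250 bases before the start site to 30 bases after it, from RefSeq promoters of GRCm38.p6, the assembly behind the build mm10 that the submitters' processing notes name. The positions are chr11:102897171-102897450 on the minus strand for Gfap, and on the plus strand chr9:37367356-37367635 for Hepacam, chr10:57784673-57784952 for Fabp7 and chr11:78322823-78323102 for Aldoc. Capitals mark matches, on either strand, to the letters TTCNNNGAA (STAT), TTGGCA (part of an NFI site), ACAAT (SOX) and TGGGAA (RBPJ, the factor of Notch signalling).
Gfap: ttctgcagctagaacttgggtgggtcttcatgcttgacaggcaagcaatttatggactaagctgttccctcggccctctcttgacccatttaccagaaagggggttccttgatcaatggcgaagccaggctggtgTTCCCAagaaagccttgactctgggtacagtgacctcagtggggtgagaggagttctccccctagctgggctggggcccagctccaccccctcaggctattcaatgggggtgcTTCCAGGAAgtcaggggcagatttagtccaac
Hepacam: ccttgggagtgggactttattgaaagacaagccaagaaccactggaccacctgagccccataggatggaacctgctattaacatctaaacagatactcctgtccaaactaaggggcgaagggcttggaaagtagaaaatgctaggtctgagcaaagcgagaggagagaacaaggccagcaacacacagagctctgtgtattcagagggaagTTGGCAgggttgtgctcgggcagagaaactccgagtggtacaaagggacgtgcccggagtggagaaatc
Fabp7: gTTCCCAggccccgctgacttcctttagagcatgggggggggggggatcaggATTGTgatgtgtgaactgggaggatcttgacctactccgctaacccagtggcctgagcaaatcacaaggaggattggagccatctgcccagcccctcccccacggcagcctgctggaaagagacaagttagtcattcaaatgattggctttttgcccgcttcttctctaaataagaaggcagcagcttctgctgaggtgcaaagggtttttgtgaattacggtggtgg
Aldoc: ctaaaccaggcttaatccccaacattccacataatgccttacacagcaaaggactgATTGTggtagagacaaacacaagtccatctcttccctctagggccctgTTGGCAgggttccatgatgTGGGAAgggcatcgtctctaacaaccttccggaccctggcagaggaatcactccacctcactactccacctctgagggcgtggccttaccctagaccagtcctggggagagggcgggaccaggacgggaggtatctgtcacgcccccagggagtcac

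Of the 9 members, 7 had promoter entries, 8 windows in all since Aldoc has 2 start sites. The STAT letters were found in 2 of 8 windows, those of Gfap, where the match began 2 bases before the start site, and of the other Aldoc start, and in 7.83% of the 32851 windows of all genes. TTGGCA was found in 3 of 8 windows (13.4% of all), ACAAT in 2 of 8 (29.8%) and TGGGAA in 6 of 8 (23.8%). The complete palindromic NFI site and the TATA box letters TATAAA were found in 0 of 8 windows (0.0365% and 13.1% of all windows). Gfap and Fabp7, which differed in neuron replicate 1, each held 1 match to TGGGAA. In other letters their windows differed: Gfap held the STAT letters and no ACAAT, and Fabp7 held ACAAT and no STAT letters. These matches describe the letters in the windows and are not shown to be bound.

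Gfap, the intermediate filament protein that defines mature and reactive astrocytes, was low in both neuron libraries. It had 181 and 89 counts in the 2 proliferating libraries, replicates 1 and 2 in that order, or 14.9 and 12.05 CPM, and 1 and 2 counts in the 2 neuron libraries. Both proliferating libraries were high and close to each other, and both neuron libraries were near 0, with no overlap. Within the replicate 1 pair its level was 176.8-fold higher in proliferating cells (95% exact counting interval 31.3 to 7021), and within the replicate 2 pair 59.1-fold (15.9 to 495). Proliferating cells averaged 13.5 ± 2.00 CPM against 0.144 ± 0.0847 CPM for neurons (SD over n = 2 libraries). The fitted log2 fold change was -6.47 with SE 0.70. In these bulk libraries, fewer cells of a type and less RNA per cell cannot be told apart.

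Hepacam encodes GlialCAM, an adhesion protein of astrocyte contacts that holds MLC1 and the chloride channel CLCN2 at the membrane. It had 74 and 22 counts in the 2 proliferating libraries and 3 and 0 in the 2 neuron libraries. It was thus present in both proliferating libraries, more so in replicate 1, and at or under 3 counts in both neuron libraries. The level was 24.1-fold higher in proliferating cells in the replicate 1 pair (interval 7.93 to 119) and at least 9.74-fold higher in the replicate 2 pair, where the neuron library had 0 counts.

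Cryab encodes the small heat shock protein alpha-B crystallin, a chaperone abundant in astrocytes and in the lens. It had 44 and 13 counts in the 2 proliferating libraries and 0 and 1 in the 2 neuron libraries. The groups did not overlap, although the replicate 2 level rests on few counts. The level was at least 14.3-fold higher in proliferating cells in the replicate 1 pair and 17.3-fold higher in the replicate 2 pair (interval 2.59 to 734). Cryab shares 252 exon bases with Hspb2 on the opposite strand in the GENCODE M21 annotation. Hspb2 is listed at 0 counts in all 4 libraries.

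Ptprz1, a receptor tyrosine phosphatase of radial glia that binds the growth factor pleiotrophin, was lower in both neuron libraries but stayed well detected there. It had 684 and 303 counts in the 2 proliferating libraries and 132 and 39 in the 2 neuron libraries, or 56.2, 41.0, 11.1 and 3.98 CPM in that order. Every neuron library lay below every proliferating one. The level was 5.06-fold higher in proliferating cells in the replicate 1 pair (interval 4.195 to 6.15) and 10.3-fold in the replicate 2 pair (7.37 to 14.8). The log2 fold change was -2.68 with SE 0.62.

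**Figure D1:**
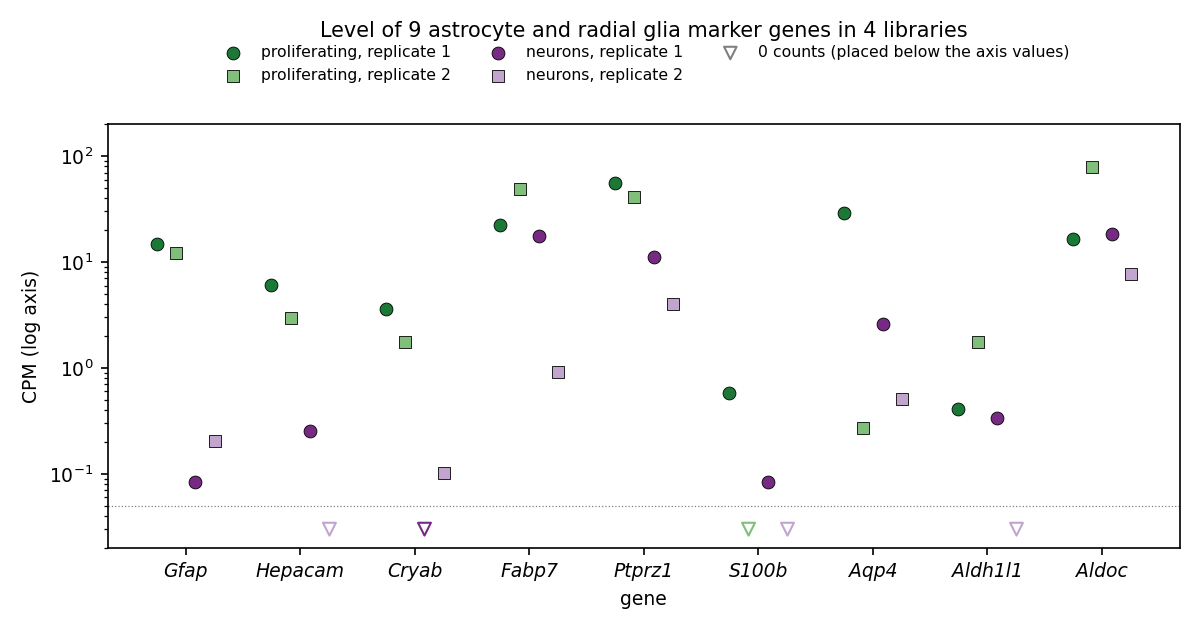
Level in CPM (log axis) of each member in the 2 proliferating and 2 neuron libraries, 1 point per library, with open triangles for 0 counts. Gfap, Hepacam, Cryab and Ptprz1 lie lower in both neuron libraries. In neuron replicate 1, Fabp7 at 17.7 CPM and Aldoc at 18.3 CPM lie near proliferating replicate 1 (22.3 and 16.5 CPM). Both lie below proliferating replicate 2 (49.0 and 79.2 CPM).

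Fabp7, the brain lipid-binding protein of radial glia, was kept in neuron replicate 1. It had 272 and 362 counts in the 2 proliferating libraries, 211 in neuron replicate 1 and 9 in neuron replicate 2. Its level was 22.3, 49.0, 17.7 and 0.917 CPM in that order, so neuron replicate 1 lay just under proliferating replicate 1 and neuron replicate 2 far below the rest. The level was 1.26-fold higher in proliferating cells in the replicate 1 pair (interval 1.05 to 1.51) and 53.4-fold in the replicate 2 pair (27.8 to 118). Neuron replicate 1 exceeded neuron replicate 2 19.3-fold (interval 9.998 to 42.9). Over both pairs the fitted log2 fold change was -1.92 (SE 1.10). It became -5.31 when neuron replicate 1 was left out and -1.01 when neuron replicate 2 was.

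Aldoc, the brain form of the glycolytic enzyme aldolase and an astrocyte marker, was the other gene kept in neuron replicate 1. It had 201 and 585 counts in the 2 proliferating libraries and 217 and 76 in the 2 neuron libraries, or 16.5, 79.2, 18.3 and 7.75 CPM. The groups overlapped, since neuron replicate 1 lay above proliferating replicate 1, and proliferating replicate 2 was the highest library. The ratio of proliferating cells to neurons was 0.905 in the replicate 1 pair, with an interval of 0.743 to 1.10 that spans 1, and 10.2 in the replicate 2 pair (8.04 to 13.2). The proliferating replicates themselves differed 4.79-fold (4.08 to 5.66). The log2 fold change of -1.87 (SE 0.80) became -0.32 without proliferating replicate 2.

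Aqp4, the water channel of astrocyte endfeet, was a gene of the replicate 1 libraries. It had 356 counts in proliferating replicate 1 but 2 in proliferating replicate 2, and 31 and 5 in the 2 neuron libraries. The proliferating replicates differed 108-fold (interval 29.7 to 896), more than its groups did in either pair. The level was 11.2-fold higher in proliferating cells in the replicate 1 pair (7.76 to 16.8). In the replicate 2 pair the ratio was 0.531, with an interval of 0.0506 to 3.24, so no difference was detectable at this depth. The fitted log2 fold change of -3.22 (SE 1.56) turned to 2.47 without proliferating replicate 1.

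S100b and Aldh1l1, which are widely used to define astrocytes, were scarcely detected. S100b, a calcium-binding protein, had 7 and 0 counts in the 2 proliferating libraries and 1 and 0 in the 2 neuron libraries. Aldh1l1, an enzyme of folate metabolism, had 5 and 13 counts in the 2 proliferating libraries and 4 and 0 in the 2 neuron libraries. Its ratio was 1.221 in the replicate 1 pair (interval 0.263 to 6.15), and its level was at least 5.75-fold higher in proliferating cells in the replicate 2 pair. In the GENCODE M21 annotation Aldh1l1 shares 499 exon bases with Gm15756 on the opposite strand, which is listed at 0 counts in all 4 libraries. It shares 105 exon bases with Gm45901 on the same strand, which is not among the counted symbols. The gap junction genes Gja1 and Gjb6, further astrocyte markers, were listed at 0 counts in all 4 libraries.

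A member was counted as kept in neuron replicate 1 when it had at least 10 counts in both replicate 1 libraries and a log2 CPM difference above -1. By this rule 2 members were kept, Aldoc with a difference of 0.14 and Fabp7 with -0.33. Of the other members with 10 counts in both replicate 1 libraries, Ptprz1 came nearest at -2.32. Aldh1l1 at -0.19 met the limit on the difference but not that on counts, with 5 and 4, and S100b was at -1.47 with 7 and 1. Of the genes with at least 10 counts in proliferating replicate 1, 86.4% were kept, and of the 7 members among them 2 were. In the same pair 5 of these 7 members were at least 2-fold lower in neurons, as were 10.5% of all such genes. In the replicate 2 pair 7 members had at least 10 counts in the proliferating library. All 7 were at least 2-fold lower in neurons, against 13.1% of genes. That limit, set on the proliferating library alone, left out Aqp4 (2 and 5 counts, difference 0.60) and S100b (0 and 0 counts). Since the members were chosen on this contrast, nothing is read from these counts.

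**Figure D2:**
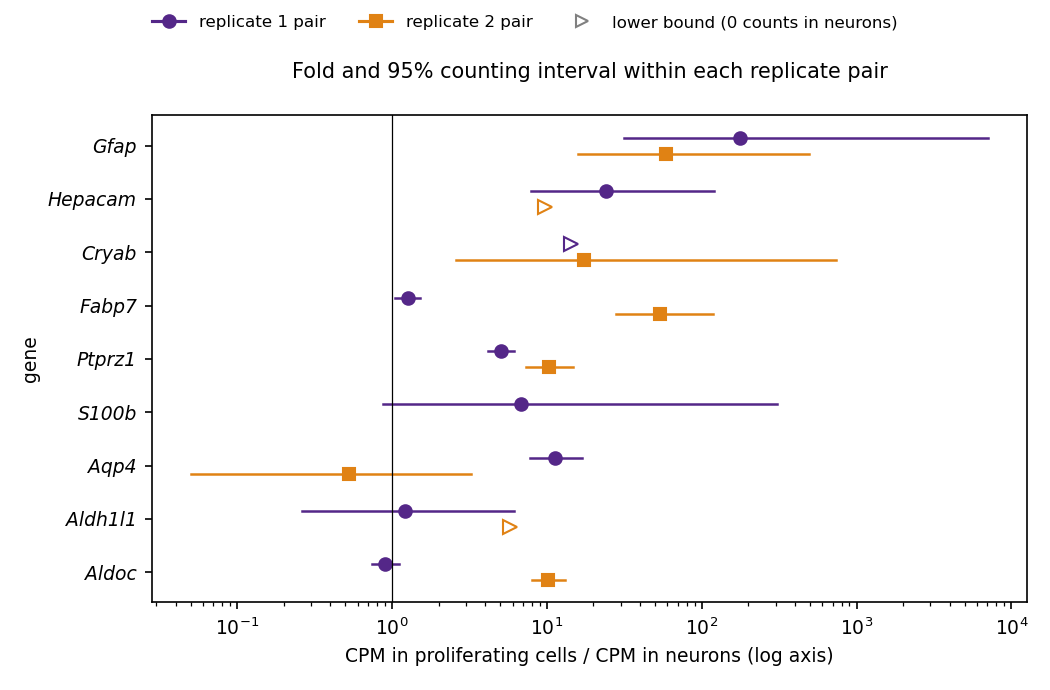
Ratio of CPM in proliferating cells to CPM in neurons within each replicate pair (log axis), with the 95% exact interval of the counts as a bar and open triangles for lower bounds where neurons had 0 counts. The intervals of Fabp7 (1.05 to 1.51 against 27.8 to 118) and Aldoc (0.743 to 1.10 against 8.04 to 13.2) are far apart between the pairs, and Aqp4 shows a ratio over 1 in the replicate 1 pair alone.

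Over 6 members with at least 10 counts in both proliferating libraries, 4 were at least 2-fold lower in neurons in both pairs (Gfap, Hepacam, Cryab and Ptprz1), as were 2.9% of the 10524 genes compared. The other 2 were kept in neuron replicate 1 and at least 2-fold lower in the replicate 2 pair, a pattern of 8.8% of these genes. Over all 9 members the median log2 CPM difference was -2.32 between the replicate 1 libraries and -3.32 between those of replicate 2. The medians over all 12783 tested genes were -4.2e-05 and 0.067. Both neuron libraries lay below both proliferating libraries for 5 of the 7 tested members and 14.5% of tested genes. The proliferating replicates were at least 2-fold apart for 4 of 8 members, Fabp7, Aqp4, Aldh1l1 and Aldoc, and for 38.2% of the 13309 genes with at least 10 counts in either. These counts use log2 CPM with a prior count of 2, which draws low values together. By the plain CPM ratio Hepacam (2.04-fold) and Cryab (2.05-fold) were past 2-fold too, both higher in proliferating replicate 1.

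In the edgeR quasi-likelihood test of neurons against proliferating cells, 0 of 7 tested members and 0% of 12783 genes were called lower at an adjusted p-value under 0.05. Before adjustment, 4 of the 7 tested members (Gfap, Hepacam, Cryab and Ptprz1), all lower in neurons, had p-values under 0.05 in this test. Over all 12783 genes 438 did, 321 lower and 117 higher. With the replicate number as a block Gfap was called, in a fit that called 0.0235% of genes lower. DESeq2 called Gfap, Hepacam and Ptprz1 lower, with 0.416% of genes called lower. In edgeR without a gene filter 5 of 9 members were called lower, the same genes with Cryab and Aqp4 added, and 0.472% of genes. These calls use the contrast on which the members were chosen.

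Levels were compared between members per kilobase of merged exons in GENCODE M21. In proliferating cells Fabp7 was highest at 28.5 ± 15.1 CPM per kilobase (SD, n = 2 for each gene here), followed by Aldoc at 14.7 ± 13.6. Then came Ptprz1 at 3.41 ± 0.754, Gfap at 3.19 ± 0.473, Aqp4 at 2.37 ± 3.29, Cryab at 1.82 ± 0.887 and Hepacam at 1.35 ± 0.655. Aldh1l1 at 0.240 ± 0.211 and S100b at 0.194 ± 0.274 were lowest. Each gene differed from the next in this order by less than the larger of their SDs, except Hepacam and Aldh1l1. In neurons Fabp7 at 7.47 ± 9.52 and Aldoc at 3.98 ± 2.28 remained the highest, and Ptprz1 followed at 0.529 ± 0.354.

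The deposited RPKM values, scaled by gene length and total count, gave Aqp4 1.01 in proliferating replicate 1, below Ptprz1 at 1.47 and Gfap at 2.32. Per kilobase of merged exons the order in that library was Aqp4 at 4.69, Ptprz1 at 3.95 and Gfap at 3.53 CPM per kilobase. The length implied by the RPKM of Aqp4 was 47251 bases, 7.58 times its merged exons of 6233 bases. For Fabp7, with 1 RefSeq transcript, it was 0.61 times the 1250 merged bases. The order of Aqp4, Ptprz1 and Gfap was thus opposite on the 2 scales.

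Other genes of the glial programme were taken from a list of 39 astrocyte and a list of 26 radial glia genes, 63 different genes of which 49 were tested. In the edgeR test 0 of the 49 were called in either direction, while 12 of 28 tested astrocyte genes and 6 of 23 radial glia genes had an unadjusted p-value under 0.05, all lower in neurons. Over all 12783 tested genes 438 did, 321 lower and 117 higher. With the replicate block 1 of them was called, Slc6a11, a GABA transporter of astrocytes with 221 and 143 counts in the 2 proliferating libraries and 0 in each neuron library. The median log2 fold change was -1.69 over the tested astrocyte genes and -1.14 over the tested radial glia genes, beside 0.024 over all tested genes.

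Over the 48 of these genes with at least 10 counts in both proliferating libraries, 15 were at least 2-fold lower in neurons in both pairs, as Gfap was and as were 2.9% of all genes so compared. Among them, Fgfr3, an FGF receptor of astrocytes, had 109 and 193 counts in the 2 proliferating libraries and 15 and 18 in the 2 neuron libraries. Acsbg1, an acyl-CoA synthetase, had 65 and 69 counts and then 9 and 3. Ncan, the proteoglycan neurocan, had 1776 and 1707 counts and then 392 and 552. A further 18 genes showed the pattern of Fabp7 and Aldoc, kept in neuron replicate 1 and at least 2-fold lower in the replicate 2 pair, as did 8.8% of all genes. This pattern is defined within pairs, so a high proliferating replicate 2 can give it without a low neuron replicate 2. The 18 include the filament genes Vim and Nes. Vim had 3154 and 6939 counts in the 2 proliferating libraries and 2800 and 1947 in the 2 neuron libraries. In CPM it was at 259, 939, 236 and 198 in that order, so its neuron libraries were close to each other. Nes had 918, 1530, 1118 and 353 counts. The glial regulator Sox9 was another of the 18, with 496 and 429 counts in the 2 proliferating libraries and 320 and 41 in the 2 neuron libraries. Its neuron libraries differed, at 26.9 and 4.18 CPM. Of the 27 astrocyte genes in this comparison 12 were lower in both pairs. Another 8 were kept in neuron replicate 1 and lower in the replicate 2 pair. Of the 23 radial glia genes these numbers were 3 and 12.

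The remaining 15 of the 48 genes showed neither pattern. Of these, 10 were within 2-fold in both pairs, among them the radial glia regulator Pax6 and the receptors Notch1 and Notch2. Another 4 were at least 2-fold higher in neurons in 1 pair and within 2-fold in the other. Slc1a2, the main glutamate transporter of astrocytes, had 207 and 67 counts in proliferating cells and 180 and 507 in neurons, with log2 CPM differences of -0.17 and 2.49. Mki67, a marker of dividing cells, had 1133 and 81 counts against 1408 and 459, with differences of 0.35 and 2.07. The others were Gli3, a factor of Hedgehog signalling, at 1.33 and 0.04, and Nfib at -0.25 and 1.37. Atp1b2, a sodium pump subunit, was lower in the replicate 1 pair alone, at -3.33 and -0.37.

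**Figure D3:**
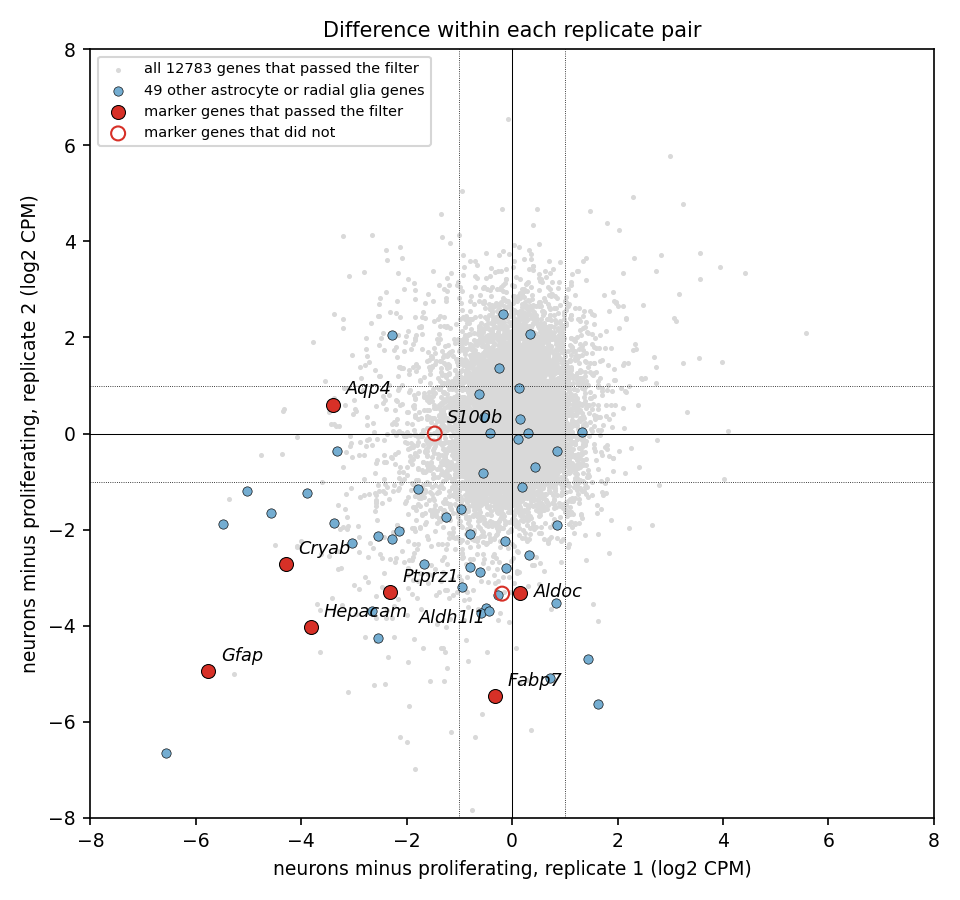
Difference of log2 CPM, neurons minus proliferating cells, in the replicate 1 pair (x axis) and the replicate 2 pair (y axis) for all tested genes (grey), 49 other astrocyte or radial glia genes (blue) and the 9 markers (red, open for S100b and Aldh1l1), with dotted lines at 2-fold. Gfap, Hepacam, Cryab and Ptprz1 lie in the lower left, and Fabp7 (-0.33 and -5.47) and Aldoc (0.14 and -3.32) lie below the centre.

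Genes that work with single members were examined in the same way, and edgeR called 0 of them. Beside the counts below, 2.9% of the 10524 genes with at least 10 counts in both proliferating libraries were at least 2-fold lower in both pairs. That base is not the tested genes used for the lists here. For Hepacam and Aqp4, 7 of 12 partners were tested and 1 was at least 2-fold lower in both pairs. That gene was Mlc1, whose protein sits with GlialCAM at the astrocyte membrane, with 83 and 28 counts in the 2 proliferating libraries and 12 and 7 in the 2 neuron libraries. Kcnj10, the potassium channel found beside Aqp4 at endfeet, had 73 and 55 counts and then 131 and 18. For Ptprz1, 9 of 11 ligands and partners were tested, and the syndecan genes Sdc3 and Sdc4 were at least 2-fold lower in both pairs. Ptn, the gene of its ligand pleiotrophin, had 554 and 711 counts in the 2 proliferating libraries, 447 in neuron replicate 1 and 90 in neuron replicate 2.

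Of 19 regulators of Gfap 18 were tested, with a median log2 fold change of -0.14 over genes that differed in both directions. At least 2-fold lower in both pairs were 2, Lifr and Olig2, beside 2.9% of genes with at least 10 counts in both proliferating libraries. Lifr, a receptor upstream of JAK-STAT signalling, was at -1.78 and -1.15. Olig2, a factor of the oligodendrocyte lineage, was at -1.999 and -6.42. The NFI genes that help to switch on astrocyte genes had log2 fold changes of -0.16 (SE 0.47) for Nfia, 0.30 (SE 0.61) for Nfib and -0.17 (SE 0.45) for Nfix. With library size alone as the scaling, the median over all genes shifted by -0.29. Stat3, the factor downstream of JAK kinases, had 220 and 503 counts in the 2 proliferating libraries and 284 and 183 in the 2 neuron libraries. Among paralogs, Aldoa, the aldolase of most tissues, had a log2 fold change of -0.06 (SE 0.59) and Fabp5, a relative of Fabp7, of -0.30 (SE 0.57).

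The genes closest to Gfap over the 4 libraries, by Euclidean distance of centred log2 CPM among tested genes, were Egr1 (distance 0.386), Slc6a11 (1.34) and Trim9 (1.75). Egr1 had 407 and 215 counts in the 2 proliferating libraries and 8 and 7 in the 2 neuron libraries. For Ptprz1, the tested member with the most counts, the closest were Acss1 (0.389), the transfer RNA gene n-TAagc18 (0.474) and Fos (0.516).

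Markers of other cells were measured beside these results. The summed level of 12 oligodendrocyte and Schwann markers was 25.6 and 125 CPM in the 2 proliferating libraries. In the 2 neuron libraries it was 26.3 and 17.6 CPM. Of these markers 5 were tested, and Mag was at 0. At least 2-fold lower in both pairs were 2 (Olig1 and Olig2), beside 2.9% of genes with at least 10 counts in both proliferating libraries. Pdgfra differed the other way in the replicate 1 pair, with 119 and 66 counts in proliferating cells and 200 and 70 in neurons. Cnp had 76 and 76 counts and then 58 and 72, and Cspg4 had 30 and 168 and then 28 and 13. The 13 supporting cell markers of the inner ear summed to 83.6 and 98.3 CPM in proliferating cells against 90.3 and 95.8 CPM in neurons, with 6 of them at 0 in all libraries. This sum is over genes that differed in opposite directions, such as Fgfr3 with the counts given above and Cdkn1b, a cell cycle inhibitor, with 268 and 150 counts in proliferating cells and 404 and 428 in neurons. Microglia markers summed to 1.49 to 2.96 CPM in all 4 libraries, endothelial markers to 0.102 to 1.218 CPM and ependymal markers to 0.677 to 1.31 CPM. Fibroblast and mesenchyme markers summed to 14.0 to 47.2 CPM, with 1 of 9 genes at 10 counts or more in any library, Pou3f4. The 9 glial markers summed to 150 and 188 CPM in proliferating cells against 50.5 and 13.5 CPM in neurons. The part of the 18S share, of the oligodendrocyte lineage markers and of the replicate number in the difference between the neuron libraries was not tested.

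**Figure D4:**
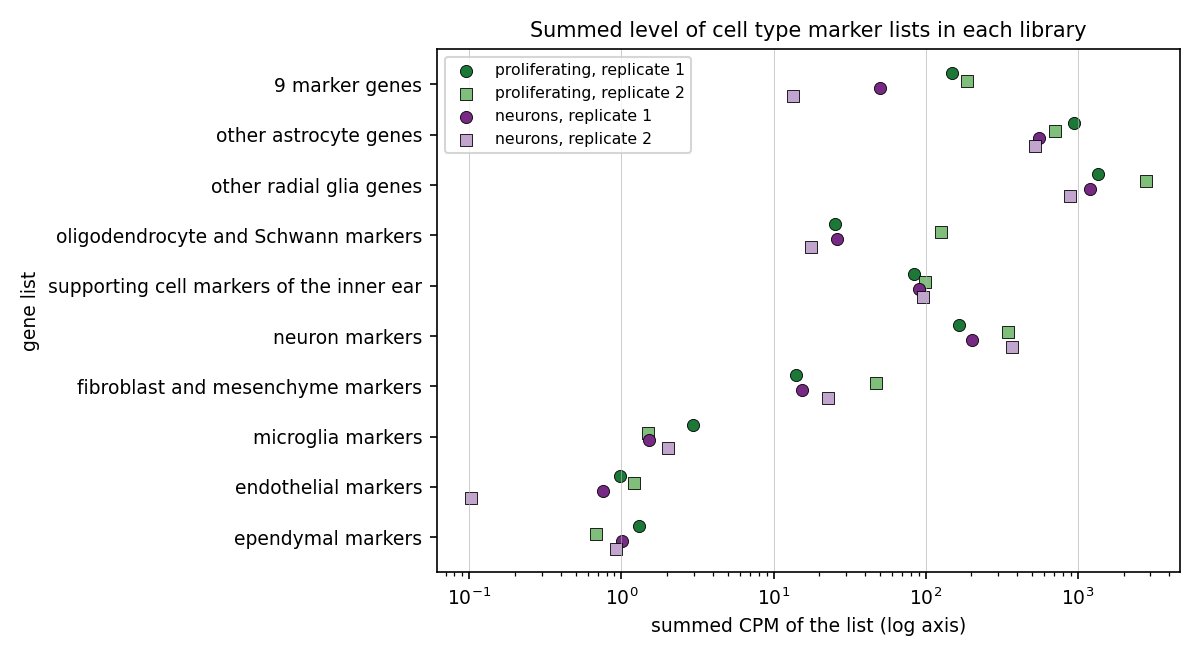
Summed CPM of each marker list (log axis) in the 4 libraries, 1 point per library. The 9 markers lie at 150 and 188 CPM in proliferating cells and at 50.5 and 13.5 CPM in neurons, while the sum of supporting cell markers, whose single genes differ both ways, lies between 83.6 and 98.3 CPM.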

How the data were processed

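Total RNA of 4 cultures was sequenced after removal of ribosomal RNA from 500 ng, with a stranded kit, per the labels' protocols. The authors deposited raw counts per gene symbol and RPKM values for each library. The submitters' processing notes name HISAT2, SAMtools, featureCounts, DESeq2 and deepTools 3.4.3 and the build mm10, and the use of strand and the annotation are not given in the sources used here. All 49997 symbols matched the RefSeq table of GRCm38.p6. By its values, the deposited RPKM divides a count by the total, 18S row included, so it is low where that row is large.

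Groups and replicate numbers come from the titles. The members and gene lists were chosen with earlier results of these data known. All genes were fitted with edgeR 4.0.16 in R 4.3.3: filterByExpr (minimum count 10, minimum total 15), TMM, glmQLFit and glmQLFTest with group as the single term, two-sided, Benjamini-Hochberg adjusted p-value under 0.05. The p-values rest on the spread between 2 libraries a group, with the spread of each gene drawn towards a trend over all tested genes. An exact permutation of a single value cannot go under 0.333 here, so none was run. Pair differences are of log2 CPM (prior count 2). Pair ratios have 95% Clopper-Pearson intervals, which cover counting error only, since reads without molecular identifiers are not independent molecules. Lower bounds replace a count of 0 by 3 counts in that library.

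The titles of both replicate 2 libraries name a set 2, so the numbers were taken to mark a shared set. Deviations of same-numbered libraries from their group means correlated at r = 0.33 across 12783 genes. All members and every tested gene of the lists could be named, those at least 2-fold apart in both pairs first, with the 3 genes nearest to Gfap and to the tested member with the most counts. Alternatives were RLE factors, library size alone, DESeq2 1.42.0, other filters, the 18S row left out, the replicate block, other prior counts or RPKM, and leaving out each library. Python 3.11.15 with pandas 2.3.3 was used for sequences and lengths.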

Additional observations from a re-analysis of the deposited data

How the results depend on the processing

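The log2 fold changes of Gfap, Hepacam, Cryab, Fabp7, Ptprz1 and Aldoc were negative under each alternative that gave a value, and that of Aqp4 was 2.47 without proliferating replicate 1 and negative otherwise. Cryab gave no value without proliferating replicate 1, where it did not pass the filter. Genes called higher and lower in neurons, 0 each in the main test, numbered 12 and 48 with DESeq2, 41 and 122 without a gene filter, 0 and 2 with library size alone and 0 and 3 with the replicate block. Members called were 3, 5, 1 and 1 in the same order, and 0 with RLE factors, the CPM filter (which kept the same genes) and the 18S row left out. Leaving out each library gave 3 to 29 genes higher, 11 to 84 lower, 1 to 4 members called and a median over tested members of -5.08 to -2.31 (main -3.22) and an Aqp4 value of -4.85 to 2.47. In those fits the lone library of a group is assumed to vary like the other group. The log2 fold change of Gfap was -7.13 to -5.99 in them. With the replicate block no member other than Gfap changed its call, and the median was -2.83. The median pair difference over 9 members was -0.912 and -0.425 in the replicate 1 and 2 pairs on the log2(RPKM + 1) scale and -1.99 in the replicate 2 pair on log2(RPKM + 0.1), scales on which low values change less by construction. The number of members kept in neuron replicate 1 was 2 in all but log2(RPKM + 1), where Aqp4 made it 3. The cause of the other differences was not tested. Of the 9 members, S100b and Aldh1l1 rest on the fewest counts.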
